A study of Mus musculus with 4 samples.

Results

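The genes described here burn fatty acids or carry dietary fat through the small intestine. They are 28 named genes, taken by symbol from a list and not by a threshold on their values. That list, like the further lists below, was chosen with earlier results of these data known. Shares set beside all tested rows are therefore descriptive only. All 28 were found among the 29871 distinct rows of the deposited table, and symbols are written in upper case as that table gives them. The adenomas grew in the small intestine of mice with the APC Min/+ genotype, in which a truncating allele of the tumour suppressor Apc starts tumours. Every animal shared that allele. The 2 control libraries had APC Min/+ alone, and the 2 knockout libraries, called KO1 and KO2, had PAF KO together with APC Min/+. PAF is read here as the PCNA-associated factor, which the study is known to concern. The labels give no strain or age, and say neither whether a library is 1 adenoma or a pool nor which part of the PAF gene was altered. Nothing in the labels says that the libraries of a group came from separate animals, so each p-value measures only the spread between these samples. Between the controls that spread may be technical. The sex-linked transcripts given below differed between KO1 and KO2, so these 2 did not share 1 animal.

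Enterocytes of the small intestine take up fatty acids and monoglycerides after a meal. Carrier proteins bring them to the endoplasmic reticulum, where they are joined again into triglyceride, loaded onto apolipoprotein B and exported as chylomicrons. A smaller share is burned. For this, carnitine palmitoyltransferases move long chains into mitochondria, acyl-CoA dehydrogenases start each round of beta-oxidation, and the trifunctional protein and thiolases complete it. The receptor PPARA switches on many of these genes, and it is known to do so in the gut as well as in the liver.

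Promoters of 4 genes are shown because they bracket the patterns described later. FABP1 and APOA4 were among the members that differed most between the knockout libraries, ACADVL was higher in both of them, and HADHB stands back to back with its partner HADHA. Sequences are the 250 bases before the start site, 5′ to 3′ on the strand of the gene, from RefSeq on GRCm38.p6, a later build than the mm9 named for the table. Positions are chr6:71199629-71199878 on the plus strand for FABP1, chr9:46240594-46240843 on the plus strand for APOA4, chr11:70015429-70015678 on the minus strand for ACADVL and chr5:30155003-30155252 on the plus strand for HADHB. Capitals mark AGGTCA, the half-site that nuclear receptors such as PPARA bind (TGACCT where it lies on the other strand), and the TATA box TATAAA.
FABP1: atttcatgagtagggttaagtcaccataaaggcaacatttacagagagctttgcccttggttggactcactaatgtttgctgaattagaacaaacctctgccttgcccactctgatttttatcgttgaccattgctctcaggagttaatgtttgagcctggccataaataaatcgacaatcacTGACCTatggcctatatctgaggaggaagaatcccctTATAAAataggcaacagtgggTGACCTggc
APOA4: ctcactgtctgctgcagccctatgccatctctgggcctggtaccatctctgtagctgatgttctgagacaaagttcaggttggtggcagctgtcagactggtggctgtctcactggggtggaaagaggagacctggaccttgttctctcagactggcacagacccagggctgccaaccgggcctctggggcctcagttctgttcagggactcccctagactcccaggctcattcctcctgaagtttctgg
ACADVL: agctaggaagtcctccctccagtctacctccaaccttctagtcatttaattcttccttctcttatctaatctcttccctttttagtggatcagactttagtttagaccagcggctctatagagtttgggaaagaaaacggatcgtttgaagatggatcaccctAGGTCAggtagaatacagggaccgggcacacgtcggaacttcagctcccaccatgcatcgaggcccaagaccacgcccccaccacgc
HADHB: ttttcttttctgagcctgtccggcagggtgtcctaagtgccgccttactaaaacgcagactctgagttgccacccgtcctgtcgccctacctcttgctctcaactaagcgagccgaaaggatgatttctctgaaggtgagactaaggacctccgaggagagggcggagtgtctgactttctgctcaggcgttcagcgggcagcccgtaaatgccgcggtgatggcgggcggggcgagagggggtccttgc

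The FABP1 window held 2 half-sites, starting 67 and 9 bases before the start site on the opposite strand, and a TATA box starting 30 bases before it. In ACADVL the half-site began 87 bases before the start. APOA4 and HADHB held neither motif in this window. Windows were found for 21 of the 28 genes. AGGTCA, searched on both strands, was in 7 of the 21 and in 14.0% of 32851 windows of the same length over all genes. TATAAA was in 2 of the 21 and in 12.4% of all windows. Neither CAAAGTCCA, a core that the enterocyte factor HNF4A prefers, nor a pair of AGGTCA half-sites in the same direction with 1 base between them was in any of the 21 windows, and 0.384% and 0.0335% of all windows held them. These matches describe letters only. The windows of HADHA and HADHB shared 228 bases, because their start sites face away from each other with 272 bases between them.

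The libraries were not alike. FPKM is a fragment count that the authors divided by transcript length and sequencing depth. Depth estimated from the smallest values was about 12700000 and 17300000 fragments in the controls, 15600000 in KO1 and 24100000 in KO2. KO2 stood apart on the first principal component (64.3% of the variance). It carried the female transcript XIST (46.4 FPKM, at most 0.00861 elsewhere), with EIF2S3Y of the Y chromosome listed at 0. EIF2S3Y was at 31.7 and 31.0 FPKM in control adenomas and 26.0 in KO1, so KO2 alone read as female. KO1 and KO2 thus differed in sex too, and the part of sex in their differences was not tested. The transcript of PAF, row 2810417H13RIK, was at 17.9 and 17.8 FPKM in control adenomas, 4.13 in KO1 and 11.4 in KO2. It was therefore lower in both, though less so in KO2. Epithelial markers were abundant in all 4 libraries, with EPCAM, KRT8, KRT18, KRT19, CDH1 and CLDN7 together between 6292 and 7555 FPKM. Because the knockout libraries differed so much, each is given apart.

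No member passed the test between the genotypes. Of the 28 genes, 27 had a mean of at least 1 FPKM and were tested with limma on log2(FPKM + 1), and 0 had an adjusted p under 0.05 (range 0.257 to 0.997). Over all 13716 tested rows 0.0729% were called. At an unadjusted p under 0.05 there were 6 members, against 13.2% of all tested rows. With 1 knockout library left out, and the other assumed to vary like the controls, calls were far more numerous for members and for other genes alike. There were 26 members and 61.2% of all tested rows without KO1, and 17 members and 20.7% of all tested rows without KO2, whereas without either control library no row was called.

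**Figure D1:**
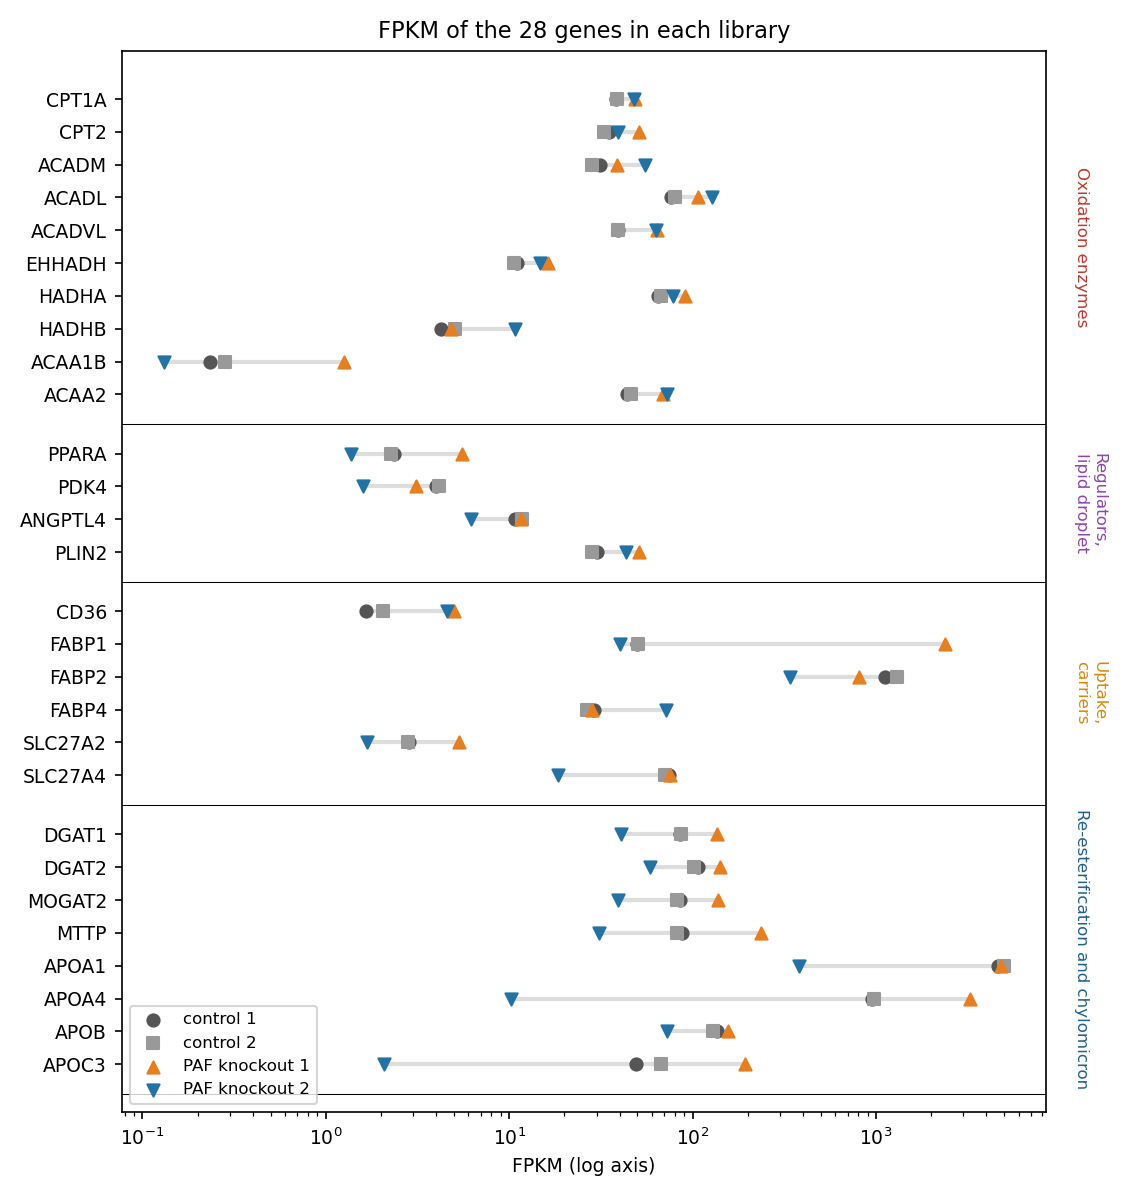
FPKM on a log axis for the 28 genes in each of the 4 libraries, grouped by role, with 1 symbol per library. Most oxidation enzymes have both knockout libraries to the right of both controls, whereas 7 of the 8 re-esterification and chylomicron genes have KO1 to the right of the controls and KO2 to the left.

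Enzymes of beta-oxidation were moderately higher in both knockout adenomas. Of the 10 oxidation genes, 8 read higher in both knockout libraries than in both controls, an arrangement found in 21.5% of all tested rows. The median log2 difference was 0.52 over the 10 genes, against 0.0035 over all tested rows. It was 0.50 in KO1 and 0.55 in KO2, where all tested rows had medians of -0.11 and 0.087. Differences of the 10 genes lay between 0.32 and 0.68, and of the 9 tested none was called.

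Entry of fatty acids into mitochondria depends on the carnitine shuttle. CPT1A, the outer membrane transferase that sets its rate, was at 38.5 and 38.9 FPKM in control adenomas and 48.8 and 48.0 FPKM in KO1 and KO2. The knockout values nearly coincided and lay above both controls, a log2 difference of 0.32 (SE 0.150, n = 2 per group; limma adjusted p = 0.449). CPT2, the inner membrane transferase, was at 34.9 and 32.9 FPKM in control adenomas and 51.3 and 39.0 FPKM in the knockouts. Here KO1 was the higher of the pair.

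The 3 acyl-CoA dehydrogenases among the members were higher in both knockout libraries. ACADVL, for very long chains, gave 39.0 and 39.1 FPKM in control adenomas and 63.7 and 62.9 FPKM in the knockouts. Groups were well separated, with a log2 difference of 0.68 (SE 0.151, n = 2 per group; limma adjusted p = 0.289). ACADL, for long chains, gave 76.5 and 80.6 FPKM in control adenomas and 107 and 128 FPKM in the knockouts (log2 difference 0.57, SE 0.185; limma adjusted p = 0.352). ACADM, for medium chains, gave 31.5 and 28.4 FPKM in control adenomas, 38.5 in KO1 and 54.9 in KO2. KO2 was the higher for both ACADL and ACADM.

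The last steps of each round were less uniform. ACAA2, a mitochondrial thiolase, was at 43.9 and 46.3 FPKM in control adenomas and 69.0 and 72.7 FPKM in the knockouts, above both controls in each (log2 difference 0.64, SE 0.156; limma adjusted p = 0.301). HADHA, the alpha subunit of the trifunctional protein, was at 65.2 and 67.7 FPKM in control adenomas and 90.5 and 78.4 FPKM in the knockouts. HADHB, its beta subunit, was at 4.23 and 5.07 FPKM in control adenomas, 4.79 in KO1 and 10.8 in KO2. So HADHB was listed far below its partner in every library, and its KO1 value lay between the controls although the windows before the start sites of the pair overlap.

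Peroxisomes shorten very long chains through their own enzymes. EHHADH, the peroxisomal bifunctional enzyme and a classic PPARA target, was at 11.0 and 10.6 FPKM in control adenomas and 16.3 and 14.7 FPKM in the knockouts. It was higher in both (log2 difference 0.49, SE 0.157; limma adjusted p = 0.352). ACAA1B, a peroxisomal thiolase, was at 0.235 and 0.283 FPKM in control adenomas, 1.26 in KO1 and 0.131 in KO2. It was below the filter and untested, and its values rest on an estimated 5, 8, 33 and 5 fragments.

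Other oxidation genes outside the 28 were mixed. Of 16 further genes of mitochondrial oxidation 15 were found. Of these, 7 were higher in both knockout libraries, 4 lower in both and 3 higher in KO1 but lower in KO2. CPT1B and CPT1C, below the filter and untested, were among the last 3. Over all tested rows these arrangements made up 21.5%, 30.2% and 7.80%. The median log2 difference of the 15 genes was 0.34. Limma called 0 of the 13 tested (1 at an unadjusted p under 0.05, against 13.2% of all tested rows). Those of smallest p were DECR1, a reductase for unsaturated chains (15.1 and 15.0 FPKM in controls, 22.1 and 34.5 in knockouts), ACADS, the short-chain dehydrogenase (49.7 and 44.7 against 36.2 and 34.8), and ETFDH, which passes the electrons on (32.8 and 29.6 against 39.2 and 50.1). ACADS thus lay lower in both knockouts while the dehydrogenases for longer chains lay higher. Of 13 peroxisomal genes found, 5 were higher in both, against 21.5% of all tested rows, and 0 lower in both, against 30.2%. Limma called 0 of them (1 at an unadjusted p under 0.05, against 13.2%). The transporter ABCD3 led them (38.7 and 36.6 FPKM against 53.2 and 80.0), followed by the isomerase ECH1 (74.2 and 72.6 against 94.8 and 110) and the thioesterase ACOT8 (19.0 and 18.8 against 27.0 and 22.4). The median was 0.19.

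Genes of ketone body metabolism, a list that mixes the making, use and transport of ketone bodies, leaned the same way. Of 7 genes, 6 were higher in both knockout libraries, against 21.5% of all tested rows, and 0 lower in both, against 30.2%. The median log2 difference was 0.63 (0.91 in KO1, 0.61 in KO2). Limma called 0, and 4 had an unadjusted p under 0.05, against 13.2% of all tested rows. ACAT1, which makes and splits acetoacetyl-CoA, was at 25.0 and 23.3 FPKM in control adenomas and 50.7 and 56.1 FPKM in the knockouts. This was a log2 difference of 1.11 (SE 0.161, n = 2 per group; limma adjusted p = 0.237). SLC16A1, a carrier of lactate and ketone bodies, was at 21.0 and 19.6 FPKM against 39.1 and 43.3. In both of these the groups did not overlap.

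Regulators and lipid droplet genes shared no single pattern. PPARA was at 2.35 and 2.26 FPKM in control adenomas, 5.56 in KO1 and 1.37 in KO2. It thus lay above both controls in one knockout and below both in the other. PDK4, a kinase that turns pyruvate dehydrogenase off when fat is burned, was at 4.0 and 4.13 FPKM in control adenomas and 3.11 and 1.59 FPKM in the knockouts, lower in both. ANGPTL4, an inhibitor of lipoprotein lipase, was at 10.7 and 11.7 FPKM in control adenomas, 11.7 in KO1 and 6.18 in KO2. PLIN2, which coats lipid droplets, was at 30.2 and 28.2 FPKM in control adenomas and 51.3 and 43.4 FPKM in the knockouts, higher in both (log2 difference 0.68, SE 0.175; limma adjusted p = 0.312). PDK4, ANGPTL4 and PLIN2 are all textbook PPAR targets, and the 3 had different patterns here.

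Among 14 transcription factors and coactivators of lipid genes, 3 were higher in both knockouts and 4 lower in both. Over all tested rows 21.5% and 30.2% had these arrangements. Another 4 were higher in KO1 and lower in KO2, against 7.80% of all tested rows, and 2 had the opposite split, against 22.6%. Limma called 0 (3 at an unadjusted p under 0.05, against 13.2% of all tested rows), and the median log2 difference was -0.0072. PPARGC1B, a coactivator of mitochondrial genes, was at 1.87 and 1.64 FPKM in control adenomas and 4.45 and 3.76 FPKM in the knockouts. PPARG was at 14.8 and 15.7 against 24.6 and 21.2 FPKM, and SREBF1, which drives lipid synthesis, was at 73.2 and 66.6 against 44.9 and 27.3. PPARD, the most abundant PPAR of the 3 in the controls, was at 37.0 and 36.4 FPKM there, 41.3 in KO1 and 20.3 in KO2. HNF4A, a master factor of enterocytes, lay between 149 and 176 FPKM, and PPARGC1A between 3.08 and 3.58 FPKM.

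Uptake genes and fatty acid carriers differed from one another. FABP1, the liver-type binding protein of enterocytes, was at 49.7 and 50.4 FPKM in control adenomas, 2367 in KO1 and 40.5 in KO2. KO1 was 47.3 times the control mean, whereas KO2 was slightly below both controls. The log2 difference of 2.62 over both libraries had an SE of 2.12 (limma adjusted p = 0.584). FABP2, the intestinal binding protein, was at 1119 and 1295 FPKM in control adenomas, 813 in KO1 and 342 in KO2. It was lower in both, so the related carriers FABP1 and FABP2 went opposite ways in KO1, and FABP1 exceeded FABP2 in that library alone.

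Other uptake genes were as mixed. CD36, a fatty acid receptor, gave 1.66 and 2.04 FPKM in control adenomas, 4.98 in KO1 and 4.58 in KO2. Its knockout values lay close together and above the controls (log2 difference 1.02, SE 0.195; limma adjusted p = 0.257, the lowest of the members). SLC27A4, the main fatty acid transport protein of enterocytes, gave 74.3 and 70.8 FPKM in control adenomas, 75.3 in KO1 and 18.5 in KO2. SLC27A2, a very-long-chain acyl-CoA synthetase, gave 2.86 and 2.82 FPKM in control adenomas, 5.32 in KO1 and 1.67 in KO2. Both were below the controls in KO2, while in KO1 SLC27A4 was just above them and SLC27A2 was 1.88 times their mean.

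FABP4, the binding protein of adipocytes, macrophages and capillary endothelium, was at 29.0 and 26.5 FPKM in control adenomas, 28.4 in KO1 and 71.4 in KO2. KO2 alone stood out. In that library 5 of 8 adipocyte markers, CFD, RETN, ADIPOQ, PLIN1 and LEP, read 3.96, 0.668, 0.419, 0.0465 and 0.0244 FPKM. All 5 were listed at 0 in the other 3 libraries. PLIN1 and LEP were close to 0 in KO2 too, which had the highest estimated depth (24100000 fragments). ADIG read 0.161 and 0 FPKM in controls, 0 in KO1 and 0.309 in KO2. LIPE went the other way, at 12.7 and 11.0 FPKM in controls, 10.5 in KO1 and 3.65 in KO2. The whole list, which includes the enterocyte-expressed PCK1, summed to 46.1 and 42.6 FPKM in controls and 24.9 and 13.4 in knockouts. LIPE and PCK1 were lower in both knockouts, as were 30.2% of all tested rows. The 7 macrophage markers summed to 159 and 170 FPKM in controls, 109 in KO1 and 203 in KO2. Of the 7, 6 were lower in KO1 but higher in KO2, against 22.6% of all tested rows. Endothelial markers summed to 71.7 and 75.1 FPKM in controls and 87.8 and 93.4 in knockouts. Of these 8, 6 were higher in both, as CD36 was, against 21.5% of all tested rows. The part of these cells in FABP4 and CD36 was not tested.

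**Figure D2:**
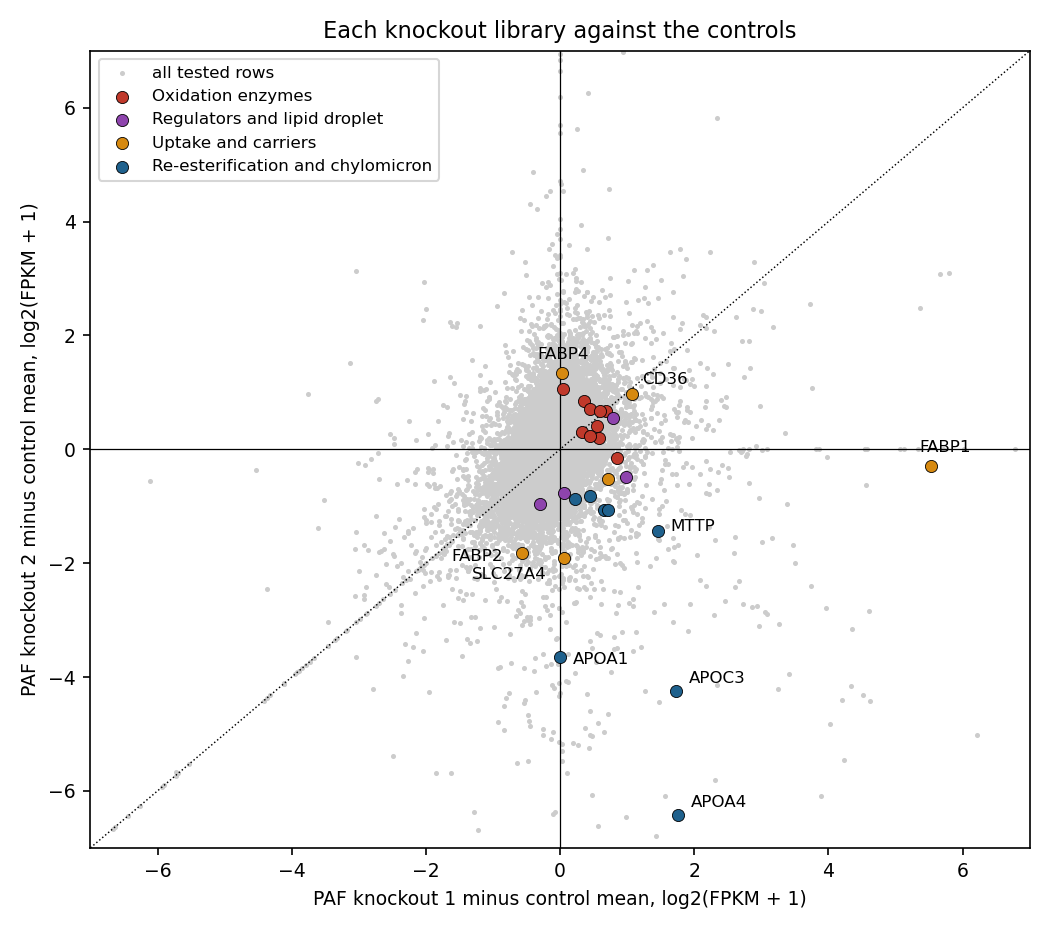
Difference of each knockout library from the control mean on the log2(FPKM + 1) scale, KO1 on the horizontal and KO2 on the vertical axis; grey points are all tested rows (46 lie outside the axes), and the dotted line marks equal differences. Oxidation enzymes lie above 0 in both libraries except ACAA1B, which is below 0 in KO2, whereas APOA4, APOC3 and MTTP lie to the lower right.

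Genes that rebuild and export dietary fat split by library. Of the 8, 7 were higher in KO1 and lower in KO2 than both controls, an arrangement found in 7.80% of all tested rows. No member showed the opposite split, found in 22.6% of all tested rows. The median log2 difference was 0.68 in KO1 and -1.25 in KO2, which leaves -0.26 over both. In linear terms the 8 genes made up 1.16% and 1.22% of summed FPKM in control adenomas, 1.66% in KO1 and 0.104% in KO2. In whole adenomas, fewer cells of a type and less RNA per cell cannot be told apart.

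Triglyceride is first rebuilt by acyltransferases. MOGAT2, which adds the first chain to monoglyceride, was at 85.5 and 82.1 FPKM in control adenomas, 138 in KO1 and 39.3 in KO2. DGAT1, which completes triglyceride, was at 85.9 and 86.0 FPKM in control adenomas, 136 in KO1 and 40.7 in KO2. DGAT2, a second enzyme for that step, was at 106 and 102 FPKM in control adenomas, 142 in KO1 and 58.6 in KO2. The 3 enzymes were 1.36 to 1.64 times the control mean in KO1 and 0.469 to 0.563 times in KO2. Each group of 2 controls was tight by comparison, with gaps of 0.00060 to 0.066 on the log2 scale.

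Loading of the lipid needs the transfer protein MTTP and apolipoprotein B. MTTP was at 87.9 and 82.4 FPKM in control adenomas, 235 in KO1 and 31.0 in KO2. These were 2.76 and 0.364 times the control mean, and over both libraries the log2 difference was 0.013 (SE 1.06; limma adjusted p = 0.997). APOB, the structural protein of the particle, was at 135 and 130 FPKM in control adenomas, 155 in KO1 and 72.2 in KO2. Its values were 1.17 and 0.545 times the control mean, and KO1 was 2.15 times KO2, the smallest such ratio of the 8 genes.

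The smaller apolipoproteins had the widest split of the group. APOA4, a chylomicron protein made by enterocytes of the upper intestine, was at 948 and 972 FPKM in control adenomas, 3251 in KO1 and 10.2 in KO2. KO1 was 3.39 times the control mean and KO2 was 94.0-fold lower than it, so the knockout libraries differed 318-fold. Over both, the log2 difference was -2.33 with an SE of 2.97 (limma adjusted p = 0.703). APOC3, which slows clearance of triglyceride-rich particles, was at 49.5 and 67.1 FPKM in control adenomas, 194 in KO1 and 2.07 in KO2. That is 3.33 and 0.0356 times the control mean. APOA1, the main protein of high-density lipoprotein, was at 4619 and 5001 FPKM in control adenomas, 4799 in KO1 and 381 in KO2. It lay between the controls in KO1 and was 12.6-fold lower than their mean in KO2.

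Apoa1, Apoc3, Apoa4 and Apoa5 stand next to each other on chromosome 9 in the RefSeq annotation. All but APOA5 lay far below the controls' range in KO2, and APOA5 was barely detected anywhere (0.260 and 0.169 FPKM in controls, 0.0280 and 0.0890 in knockouts). In KO1 the neighbours differed, with APOC3 and APOA4 above the controls' range and APOA1 within it. Among 13716 tested rows ranked by the gap between the knockout libraries, APOA4 stood at 33, APOC3 at 75, FABP1 at 80, APOA1 at 213 and MTTP at 305. The gap exceeded that between the controls for 26 of the 28 genes, the exceptions being CD36 and ACAA2, and for 86.5% of all tested rows.

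All 20 further absorption and chylomicron genes were found, under current or older symbols. Of them, 1 was higher in both knockouts, against 21.5% of all tested rows, 7 were lower in both, against 30.2%, and 8 were higher in KO1 and lower in KO2, against 7.80%. APOA5, below the filter and untested, was among the 7. None of the 19 tested was called by limma (1 at an unadjusted p under 0.05, against 13.2%), and the median of the 20 was -0.066. NPC1L1, the cholesterol importer, was at 61.6 and 61.5 FPKM in control adenomas and 40.7 and 20.5 FPKM in the knockouts. The transport protein SLC27A1 was at 18.2 and 19.9 against 13.2 and 10.3, and the lipoprotein receptor SCARB1 at 21.3 and 22.4 against 17.6 and 13.6. These 3, of smallest p, were all lower in both knockouts, as 7 of the 20 were.

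Oxidation and absorption genes thus parted in KO2. The mean log2(FPKM + 1) of the 10 oxidation genes was 4.49 and 4.51 in the controls and 4.99 and 5.0 in KO1 and KO2. That of the 8 absorption genes was 7.61 and 7.65 in the controls, 8.51 in KO1 and 5.19 in KO2. Oxidation minus absorption was therefore -3.12 and -3.14 in the controls, -3.52 in KO1 and -0.19 in KO2. KO1 leaned slightly toward absorption genes and KO2 strongly away from them. As 2 samples against 2 cannot go below an exact 2-sided permutation p of 0.333, no test of this contrast is given.

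Markers of mature enterocytes and of position along the intestine also differed between the libraries and are set beside the absorption genes here. The 16 enterocyte markers, chosen without lipid genes, summed to 2599 and 2590 FPKM in control adenomas, 2546 in KO1 and 1289 in KO2. Here 10 were lower in both knockouts, against 30.2% of all tested rows. The other 6 were higher in KO1 and lower in KO2, against 7.80%. Limma called 0 (7 at an unadjusted p under 0.05, against 13.2% of all tested rows). ALPI, the brush border phosphatase, was among the 6, at 4.95 and 0.125 times the control mean, and so was the lactase LCT, at 2.36 and 2.36 FPKM in control adenomas, 36.3 in KO1 and 0.0432 in KO2. VIL1, the brush border protein villin, was at 317 and 314 against 307 and 276 FPKM.

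Most proximal markers were higher in KO1 and lower in KO2. They summed to 88.3 and 88.5 FPKM in control adenomas, 260 in KO1 and 52.1 in KO2. Of the 7, 5 had that arrangement, against 7.80% of all tested rows. The others were ONECUT2, lower in both, and the iron exporter SLC40A1, at 12.3 and 12.4 FPKM in control adenomas, 11.9 in KO1 and 23.1 in KO2. GATA4, a factor of duodenum and jejunum, was at 8.72 and 8.16 FPKM in control adenomas, 56.3 in KO1 and 2.25 in KO2. ADA, an enzyme of the duodenum, was at 24.4 and 24.2, then 76.3 and 6.56. Distal markers summed to 2002 and 2072 FPKM in control adenomas, 441 in KO1 and 1906 in KO2. Of the 8, 6 were lower in both, against 30.2% of all tested rows. FABP6, the ileal bile acid carrier, was at 956 and 926 FPKM in control adenomas, 2.59 in KO1 and 634 in KO2. FABP1 was thus far above the controls and FABP6 far below them in KO1, while in KO2 the distal markers were mixed. There GUCA2A (971 FPKM) and FABP6 made up most of the distal sum, CUBN, OSTA and OSTB were at 0.125, 0.518 and 0.594 times the control mean, and FGF15 was at 5.80 times. Whether the position of the adenomas has a part in the absorption genes was not tested.

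Other tissues differed as well. Smooth muscle markers summed to 184 and 183 FPKM in control adenomas, 217 in KO1 and 661 in KO2. Of the 8, 7 were higher in both, against 21.5% of all tested rows. Epithelial markers had 2 of 6 higher in both and 1 lower in both, against 21.5% and 30.2% of all tested rows. They made up 1.21% and 1.18% of summed FPKM in control adenomas, 1.30% in KO1 and 1.24% in KO2. The part of muscle in the oxidation and absorption genes was not tested.

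**Figure D3:**
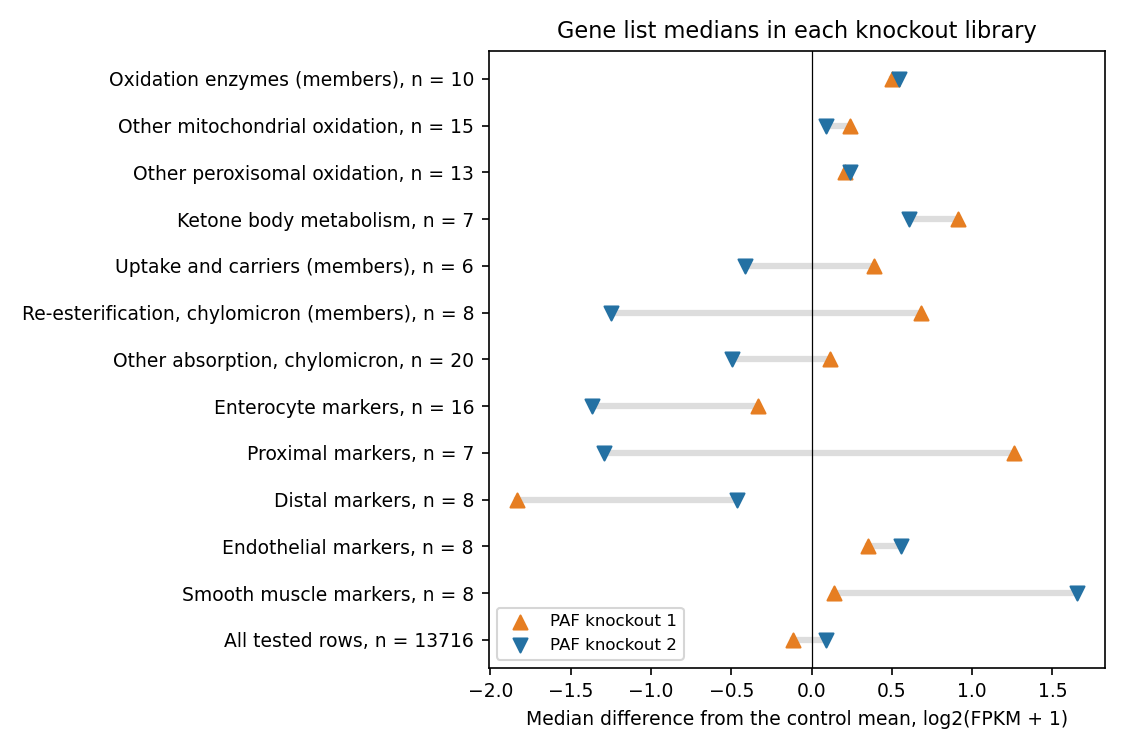
Median difference from the control mean on the log2(FPKM + 1) scale for each gene list, with KO1 as orange and KO2 as blue triangles and n the genes found. The oxidation enzymes have medians of 0.50 and 0.55, close together, whereas the re-esterification and chylomicron genes have 0.68 and -1.25, on either side of 0.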

How the data were processed

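The authors deposited 1 table of FPKM values with a column per library. The submitters' processing notes name TopHat2, Cuffdiff and the genome build mm9, without versions, settings or gene annotation. Of 29955 rows, 84 were dropped as repeats of a symbol with a lower mean. The test, limma 3.58.1 (R 4.3.3), took rows averaging 1 FPKM or more and their log2(FPKM + 1), using a variance trend and Benjamini-Hochberg adjustment over 13716 rows at 0.05. This scale understates differences of low genes. Medians of the 28 genes and their roles use every gene, filtered or not. The fit was tested on simulated data. Depth was estimated from the most common small value of FPKM times length among GENCODE genes with 1 transcript. It is approximate, and precision for single values is limited by 2 libraries per group. Members and lists were chosen with earlier results of these data known. Named genes were all 28 members, the 3 of smallest p in each further pathway list, and fixed regulators and markers; 1 gene that this rule names is not reported here. Alternatives covered pseudocount, filter, scaling, variance trend, left-out libraries and a replicate block.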

Additional observations from a re-analysis of the deposited data

How the results depend on the processing

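Over all tested rows 10 were called, 5 with no filter (3 of them higher) 0 without either control, 8397 without KO1 and 2833 without KO2; the cause was not tested. Filters at 5 FPKM, other pseudocounts, scalings and no variance trend left this count within 1.5 times. With the replicate block 13 rows were called, and 13 with the crossed pairing, added because deviations of same-numbered libraries correlated at -0.115; both left all members uncalled. The oxidation median of 0.52 was 0.60 with a pseudocount of 0.1 or 0.01, 0.58 with median centring, and 0.48 to 0.55 with 1 library left out. The absorption median ran from -1.25 to 0.68 and the oxidation minus absorption median from -0.18 to 1.80, each changing sign without KO2. Log2 differences of 12 tested members changed sign with 1 library left out. PPARA ran from -0.48 to 0.99, FABP1 from -0.30 to 5.54, SLC27A2 from -0.52 to 0.72 and MTTP from -1.43 to 1.45. ANGPTL4 ran from -0.77 to 0.053, SLC27A4 from -1.91 to 0.053, DGAT1 from -1.06 to 0.66 and DGAT2 from -0.82 to 0.44. MOGAT2 ran from -1.07 to 0.71, APOA4 from -6.42 to 1.76, APOB from -0.87 to 0.23 and APOC3 from -4.25 to 1.73. The untested ACAA1B changed sign too, at 0.84 from KO1 alone and -0.15 from KO2 alone. None of the alternatives run changed the sign of a tested oxidation enzyme.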

Other observations

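Some genes of the further lists, chosen after their values were seen, showed the split of the absorption genes. APOC2, the activator of lipoprotein lipase, was at 31.4 and 41.7 FPKM in control adenomas, 419 in KO1 and 8.30 in KO2. CREB3L3, a membrane-bound transcription factor of liver and gut known for activating apolipoprotein genes, was at 70.9 and 67.9 FPKM in control adenomas, 135 in KO1 and 15.6 in KO2. CIDEC, which enlarges lipid droplets, was at 21.0 and 20.6 FPKM in control adenomas, 47.0 in KO1 and 8.86 in KO2. On the oxidation side, KO2 was highest for ETFA, which carries electrons from the dehydrogenases, at 27.4 and 27.8 FPKM in control adenomas, 36.8 in KO1 and 95.7 in KO2. OXCT1, which lets cells use ketone bodies, likewise was at 45.9 and 43.5 FPKM in control adenomas, 56.0 in KO1 and 136 in KO2. None of these 5 was called by limma (adjusted p = 0.449 to 0.999).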
